A study of Mus musculus and Rattus norvegicus with 18 samples.

Results

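The fatty acid module of the heart was taken as 41 listed genes for fatty acid uptake, activation and oxidation, matched by symbol to the deposited count tables. All 41 had a row among the 55487 gene IDs of the heart RNA table and among the 17866 genes of the ribosome footprint table. In the rat H9C2 table, 39 were found by symbol and the other two, Cd36 and Eci2, were not. The list rests on gene function with no measured value in its rule, but it was drawn up with earlier results of these data known, so it is not independent of them.

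Whole hearts of 4-week-old C57BL/6 mice were profiled with RNA-seq and with Ribo-seq, a count of RNA stretches covered by ribosomes, in a conditional Mettl1 knockout (cKO) and in controls (Ctrl), with 2 libraries per genotype and assay. H9C2 cells, rat myoblasts of embryonic cardiac origin, were profiled by RNA-seq with 3 libraries per genotype. The genotypes were a Mettl1-null line (M1-null), made with a CRISPR-Cas9 frameshift, and cells with normal Mettl1 (WT). Mettl1 is the methyltransferase that, with Wdr4, places N7-methylguanosine on tRNAs. The labels name neither the driver of the deletion nor the alleles carried by the Ctrl mice, and the M1-null cells are described as 1 edited line.

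Long-chain fatty acids are the main fuel of the adult heart. They are released from lipoproteins, taken up, joined to coenzyme A, carried into mitochondria as carnitine esters, and shortened in repeated rounds of dehydrogenation, hydration, dehydrogenation and thiolysis. Malonyl-CoA blocks the carnitine step, and electrons removed in the first step of each round pass through electron transfer flavoprotein to the respiratory chain. Many genes of the pathway are known targets of PPAR and ERR nuclear receptors and their coactivator PGC-1alpha.

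Total counts per library ran from 15052652 to 16844783 in heart RNA, from 25171650 to 39675627 in footprints and from 90321496 to 94202947 in H9C2. Where a test is given, it is the quasi-likelihood test of edgeR, adjusted by Benjamini-Hochberg over all genes tested in that comparison, with an adjusted p under 0.05 as the threshold. Levels (CPM) are counts scaled to a common library size with TMM factors, and fold changes are log2 of cKO over Ctrl or M1-null over WT, with their standard error (SE). Nothing in the labels says that libraries came from separate animals or cultures, so p-values measure the spread between these libraries, which may be technical. Mettl1 had 2.49 and 2.52 CPM in cKO heart RNA, against 4.31 and 3.76 CPM in Ctrl RNA, a difference that missed the threshold (-0.69 ± 0.24 SE, edgeR adjusted p = 0.0664). Its footprints stood at 2.22 and 2.22 CPM in cKO, against 6.28 and 6.62 CPM in Ctrl (-1.54 ± 0.21 SE, edgeR adjusted p = 0.000101), and in H9C2 it ranged from 3.75 to 4.72 CPM in M1-null and from 15.6 to 16.6 CPM in WT (-1.93 ± 0.11 SE, edgeR adjusted p = 1.11e-05).

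RNA of the fatty acid genes was lower in cKO hearts across most steps of the pathway. Of 40 members that passed the filter on low counts, 21 fell, 1 rose and 18 did not pass the test, against a background in which 6.26% of 14088 genes fell, 8.16% rose and 14.4% passed in either direction. With library totals in the place of TMM, 15 fell and 3 rose (Acot13, Pnpla2 and Slc27a4). The median log2 fold change of the 40 was -0.21, and that of all genes tested was 0.00 at this rounding. Footprints moved the same way, with 23 of 41 members lower and 1 higher, against a background of 7.33% lower and 9.11% higher among 13514 genes, which is 16.4% in all. The median footprint change of the members was -0.34, beside 0.00 for all genes. There were 18 members that fell in both assays, 3 that fell in RNA alone by the threshold and 5 in footprints alone, and no member rose in one and fell in the other.

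Summed over the module, RNA stood at 16122 and 15839 CPM in cKO, against 18347 and 18173 CPM in Ctrl. Summed footprints stood at 31987 and 32151 CPM in cKO, against 40798 and 38115 CPM in Ctrl. Both cKO libraries lay below both Ctrl libraries in each assay. In RNA 35 of 40 members had no overlap between cKO and Ctrl libraries, 4 higher and 31 lower in cKO, where 55% of all genes tested were apart. In footprints 32 of 41 members were apart, 4 higher and 28 lower, against 55.9% of all genes. Fewer cardiomyocytes and less of these RNAs per cardiomyocyte cannot be told apart in whole hearts.

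Marker counts in heart are set beside all genes tested, of which 6.26% fell and 8.16% rose in RNA. In footprints 7.33% of all genes fell and 9.11% rose. Some cardiomyocyte markers fell as these genes did, and others did not pass. Of 10 markers, 5 fell in RNA (Myh6, Ttn, Myl2, Pln and Ryr2) and 5 in footprints (Myh6, Actn2, Pln, Ryr2 and Mb), with medians of -0.13 and -0.25, and none rose. Their summed RNA was 47790.4 and 47948 CPM in cKO, against 52722 and 52445 CPM in Ctrl. Their summed footprints were 110737 and 110160.3 CPM in cKO, against 136287 and 127509 CPM in Ctrl. Adipocytes also express Lpl, Cd36 and Lipe, and their markers were sparse here, with 23.0 and 15.4 CPM in cKO, against 15.6 and 22.7 CPM in Ctrl, and 0 of 6 tested passed in RNA by edgeR, 0 of them at an unadjusted p under 0.05. In footprints 7 of 8 adipocyte markers had a positive estimate, with a median of 0.35, and by edgeR 0 passed, with 2 at an unadjusted p under 0.05. Their summed footprints were 84.5 and 76.9 CPM in cKO, against 52.5 and 81.2 CPM in Ctrl. Of the brown adipocyte markers, 1 of 3 fell in RNA and 1 of 2 in footprints. The 1 that fell in RNA was Ppara, which is also counted below among the nuclear receptor genes. The other 2 RNA estimates were positive. Endothelial markers, whose cells take part in fatty acid uptake, had 2 of 10 that fell in RNA and 1906 and 1909.7 CPM in cKO, against 2063 and 2139.6 CPM in Ctrl. Smooth muscle and pericyte markers had 1 of 8 that fell in RNA, macrophage markers 0 of 8 past the edgeR threshold (2 at an unadjusted p under 0.05) and fibroblast markers 1 of 8 that rose, and 3 of 7 erythroid markers rose, with 2496 and 1594 CPM in cKO, against 1457 and 1592 CPM in Ctrl. In footprints 1 of 9 endothelial markers fell and 1 rose, 1 of 8 smooth muscle and pericyte markers fell and 1 of 7 erythroid markers rose. Macrophage and fibroblast markers had 0 of 8 each past the edgeR threshold in footprints, with 3 and 1 at an unadjusted p under 0.05. The part of these cell types in the results on fatty acid genes was not tested.

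**Figure D1:**
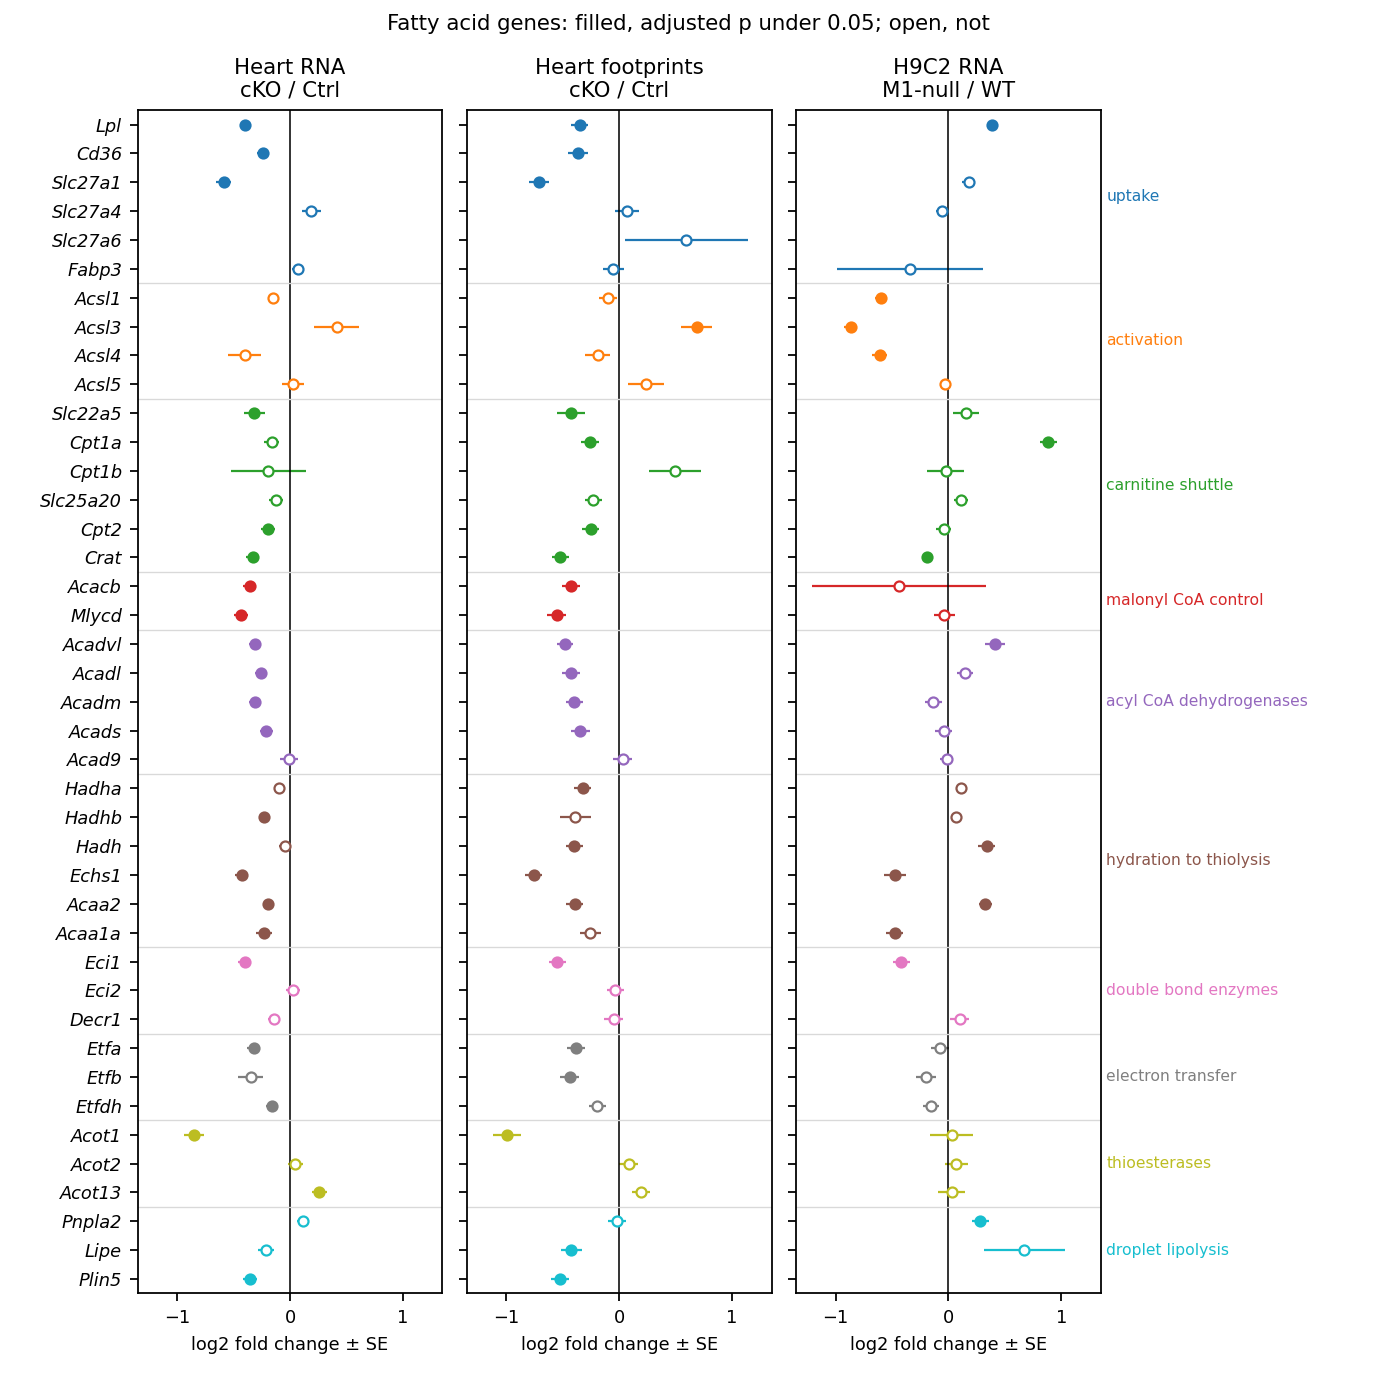
Log2 fold change ± SE of each of the 41 fatty acid genes by role, in heart RNA and heart footprints (cKO over Ctrl, 2 libraries each) and in H9C2 RNA (M1-null over WT, 3 libraries each), with filled points past an adjusted p of 0.05 (edgeR) and genes that were not tested left blank. Most heart points lie left of zero, 21 filled in RNA and 23 in footprints, while the H9C2 points spread to both sides with 6 filled on the right and 7 on the left.

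Footprints per kilobase of reading frame place the members on 1 scale. In Ctrl hearts the densities ran from 8769 CPM per kb on Lpl, 4883 on Fabp3 and 3916 on Acot13 down to 4.62 on Acsl5, 4.42 on Acsl3 and 0.191 on Slc27a6 (means of 2 libraries). Ctrl RNA was only 159 CPM for Acot13, beside 2653 CPM for Lpl and 2142 CPM for Fabp3. Why Acot13 had so many footprints for its RNA was not tested, so its density is no measure of its translation. Below the first 3, Acaa2, Acadl and Cd36 followed at 1783, 1710.2 and 1665, and these neighbours overlapped between their Ctrl libraries. Hadha and Acadvl, at 1035 and 1016, did not differ beyond their spread, nor did neighbours in the run of Hadh, Echs1, Decr1 and Acsl1 from 967 to 949. Echs1 averaged 569.6 CPM per kb in cKO, against 963 in Ctrl, and ranked 13 from the top in cKO and 10 in Ctrl. Hadhb, the partner subunit of Hadha in the trifunctional protein, showed 62.9 in cKO and 82.2 in Ctrl, far under the 827 and 1035 of Hadha. Ctrl RNA per gene was closer, at 998 CPM for Hadhb and 1346 CPM for Hadha. Whether Hadhb footprints were lost in counting was not tested, so its low density is no measure of its translation. The RNA levels cannot be set against each other per length here, since exon lengths of the counted models were not used.

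**Figure D2:**
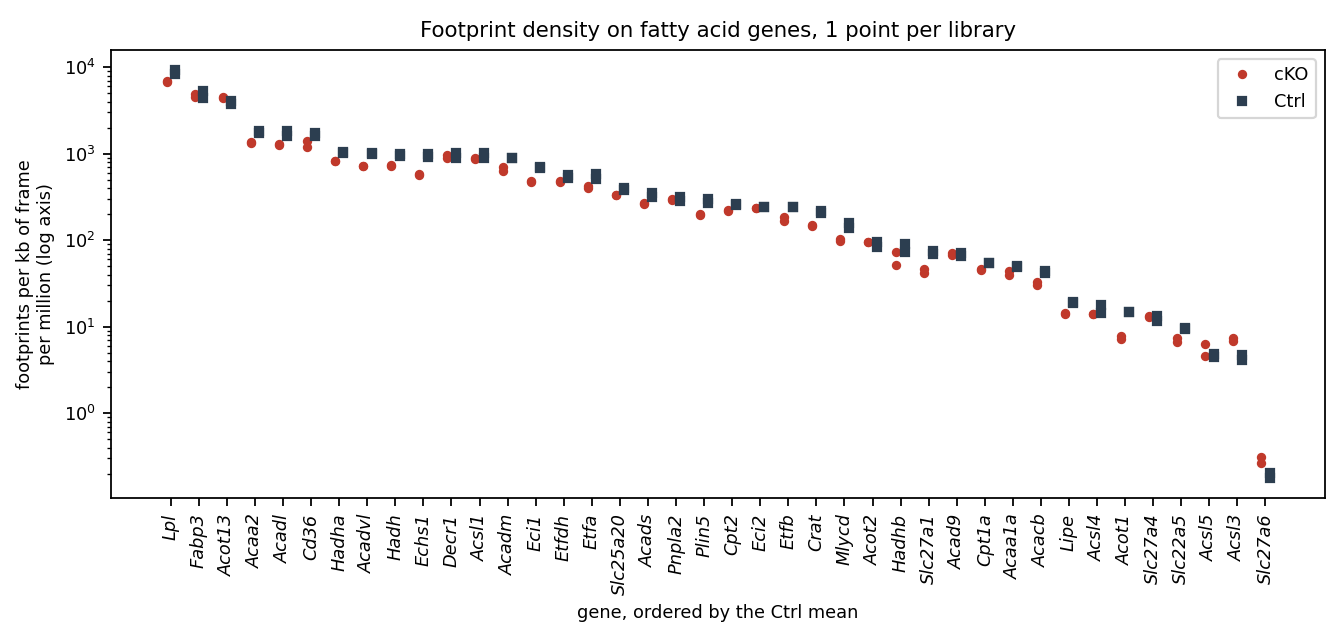
Footprint CPM per kb of reading frame (log axis) for 40 of the fatty acid genes, ordered by the Ctrl mean, with 1 point per library, cKO as red circles and Ctrl as dark squares. Density is highest on Lpl, Fabp3 and Acot13 and lowest on Slc27a6, and Cpt1b is left out because its frame with most footprints has only 19 codons.

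Of the uptake genes, Lpl, Cd36 and Slc27a1 fell in both assays and the other tested members did not pass. Lpl encodes lipoprotein lipase, which frees fatty acids at the vessel wall, Cd36 the main long-chain fatty acid translocase of heart muscle, and Slc27a1 and Slc27a4 the transport proteins FATP1 and FATP4. Lpl (ENSMUSG00000015568) had 2015 and 2014 CPM in cKO, against 2728 and 2579 CPM in Ctrl. Its footprints stood at 9722 and 9863 CPM in cKO, against 13048 and 11891 CPM in Ctrl. Both measures were lower in each cKO library than in each Ctrl library and fell (-0.40 ± 0.05 SE, edgeR adjusted p = 3.02e-05 in RNA, -0.35 ± 0.08 SE, edgeR adjusted p = 0.00493 in footprints). Slc27a1 RNA was at 66.8 and 70.8 CPM in cKO, against 103 and 104 CPM in Ctrl. Slc27a1 footprints were at 89.6 and 81.1 CPM in cKO, against 146 and 134 CPM in Ctrl. The groups were apart in both assays and both measures fell (-0.59 ± 0.07 SE, edgeR adjusted p = 2.45e-05 in RNA, -0.71 ± 0.09 SE, edgeR adjusted p = 4.44e-05 in footprints), the largest decrease of the uptake genes.

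Cd36 RNA read 1436 and 1355 CPM in cKO, against 1691 and 1612 CPM in Ctrl. The corresponding footprints read 1693 and 1968 CPM in cKO, against 2456 and 2259 CPM in Ctrl. Each fell (-0.24 ± 0.05 SE, edgeR adjusted p = 0.00333 in RNA, -0.36 ± 0.09 SE, edgeR adjusted p = 0.00817 in footprints), and the footprint call was lost without cKO replicate 1 (-0.27, edgeR adjusted p = 0.167). Slc27a4 had 32.8 and 34.1 CPM in cKO, against 29.5 and 29.2 CPM in Ctrl and did not pass (0.19 ± 0.09 SE, edgeR adjusted p = 0.169). With library totals Slc27a4 RNA rose (0.27, edgeR adjusted p = 0.0454). Fabp3, the cytosolic fatty acid binding protein of heart muscle, had 2349.7 and 2146 CPM in cKO, against 2168 and 2117 CPM in Ctrl, with overlapping footprints of 1973 and 1785 CPM in cKO, against 2125 and 1771 CPM in Ctrl. Neither passed the test (0.07 ± 0.05 SE, edgeR adjusted p = 0.414 in RNA and -0.05 ± 0.09 SE, edgeR adjusted p = 0.771 in footprints). Fabp3 shares its span with Zcchc17, and the sources used here give no strand setting for the counting. Slc27a6 was barely detected, with 10 and 9 RNA counts in cKO, against 6 and 1 in Ctrl, and was not tested in RNA.

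Activation genes are the long-chain acyl-CoA synthetases that join fatty acids to coenzyme A. Of the 4, 0 passed in heart RNA by the main edgeR fit or DESeq2, with 2 at an unadjusted p under 0.05, and 1 rose in footprints. Acsl1 and Acsl4 RNA did fall in edgeR with replicate number as a block (adjusted p = 0.00942 and 0.0339). Acsl1 RNA also fell with a minimum of 1 count (edgeR adjusted p = 0.0184). Acsl1, the main synthetase of heart muscle, had 838 and 886 CPM in cKO, against 938 and 973 CPM in Ctrl, a change of -0.15 ± 0.05 SE, edgeR adjusted p = 0.0629. Its footprints were at 1815 and 1897 CPM in cKO, against 2114 and 1866 CPM in Ctrl. The RNA groups were apart by a small step that missed the threshold, and the footprint groups overlapped.

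Acsl3, a synthetase of the endoplasmic reticulum and lipid droplets, was the 1 member whose footprint increase in cKO hearts passed the test. It held 14.6 and 16.0 CPM in cKO, against 10.3 and 8.83 CPM in Ctrl (0.69 ± 0.13 SE, edgeR adjusted p = 0.00237), from a low density. Acsl3 RNA did not pass, with 5.44 and 6.01 CPM in cKO, against 3.80 and 4.77 CPM in Ctrl (0.41 ± 0.20 SE, edgeR adjusted p = 0.193). Its cKO libraries lay above both Ctrl libraries in each assay, and its span overlaps Utp14b. Acsl4 had 10.6 and 8.21 CPM in cKO, against 13.4 and 11.6 CPM in Ctrl. Acsl5 had 25 and 22.8 CPM in cKO, against 23.1 and 23.9 CPM in Ctrl. Neither passed in RNA or footprints in the main fit.

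**Figure D3:**
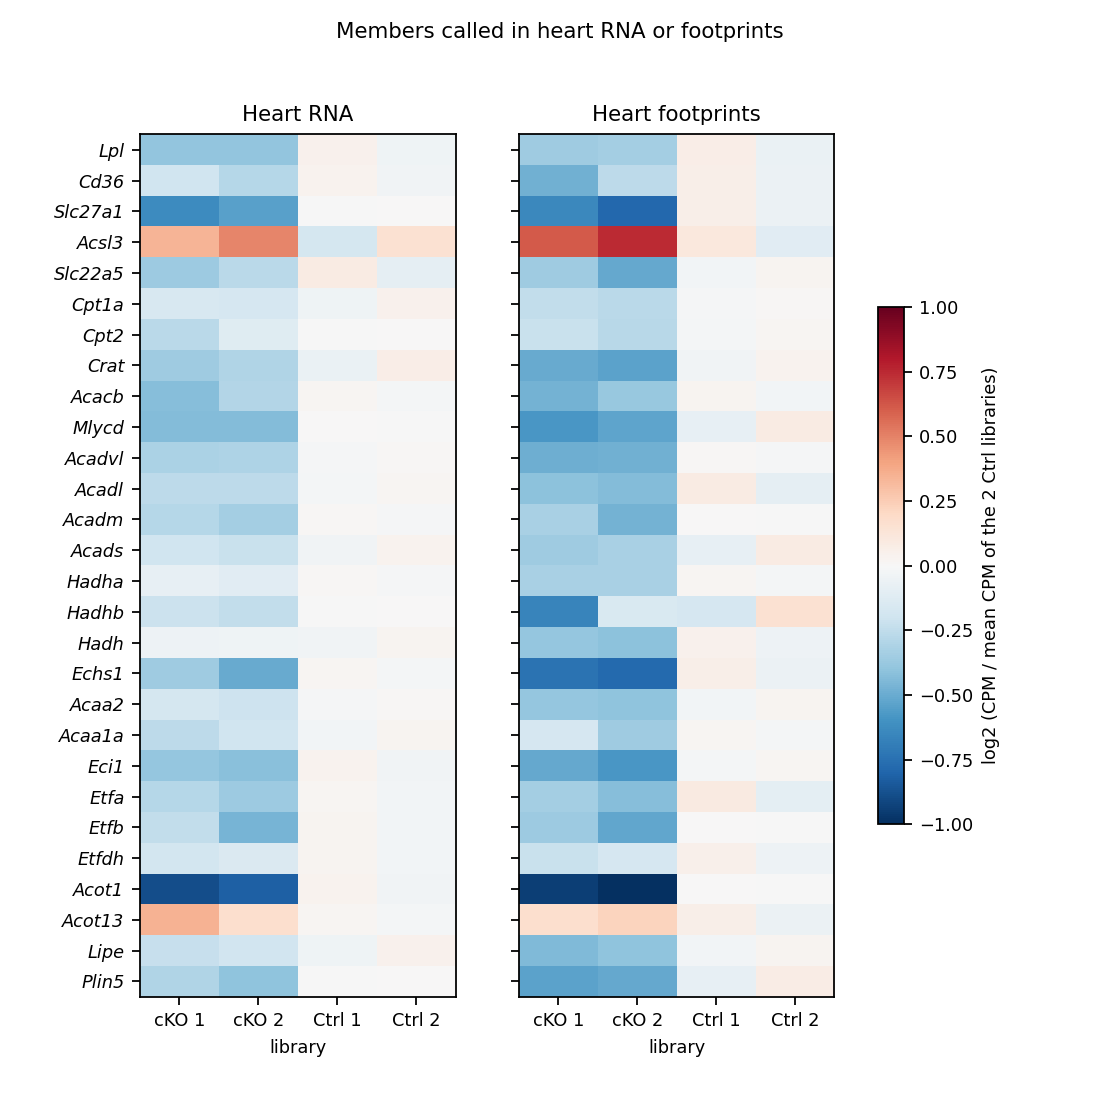
Level of each member that passed the test in heart RNA or footprints, as log2 of its CPM over the mean CPM of the 2 Ctrl libraries, for each cKO and Ctrl library (columns) and gene (lines). Both cKO columns are blue for nearly all genes in both assays, with Acsl3 and Acot13 in red, and Hadhb footprints vary within each genotype.

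The carnitine shuttle carries activated fatty acids across the mitochondrial membranes. Of its 6 members, 3 fell in RNA (Slc22a5, Cpt2 and Crat) and 4 in footprints (the same 3 and Cpt1a). Crat, the carnitine acetyltransferase that buffers mitochondrial acetyl-CoA, changed most. Its RNA was 449 and 465 CPM in cKO, against 547 and 600.4 CPM in Ctrl. Crat footprints came to 279.7 and 274 CPM in cKO, against 388 and 407 CPM in Ctrl. Groups were well apart in both assays, with -0.33 ± 0.06 SE, edgeR adjusted p = 0.00103 in RNA and -0.52 ± 0.08 SE, edgeR adjusted p = 0.000219 in footprints, and the span of Crat overlaps Dolpp1.

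Cpt2, the inner membrane carnitine palmitoyltransferase, had 212 and 235 CPM in cKO, against 254 and 257 CPM in Ctrl. Cpt2 footprints were at 442 and 425 CPM in cKO, against 508 and 524 CPM in Ctrl. These were small decreases just past the threshold (-0.19 ± 0.06 SE, edgeR adjusted p = 0.0453, -0.25 ± 0.07 SE, edgeR adjusted p = 0.0309), and the RNA call was lost by DESeq2 (adjusted p = 0.156) and when library totals replaced TMM factors (-0.11, edgeR adjusted p = 0.249). It was also lost without cKO replicate 1, Ctrl replicate 1 or Ctrl replicate 2 (edgeR adjusted p between 0.104 and 0.329), and the footprint call with library totals (edgeR adjusted p = 0.119) and without cKO replicate 1, cKO replicate 2 or Ctrl replicate 2 (edgeR adjusted p between 0.066 and 0.253). Slc22a5, the plasma membrane carnitine transporter OCTN2, had 27.8 and 29.7 CPM in cKO, against 37.9 and 33.6 CPM in Ctrl and footprints of 12.5 and 11.2 CPM in cKO, against 15.7 and 16.3 CPM in Ctrl. Its decreases (-0.32 ± 0.09 SE, edgeR adjusted p = 0.033, -0.43 ± 0.12 SE, edgeR adjusted p = 0.0268) were likewise lost by DESeq2 in both assays (adjusted p = 0.167 in RNA and 0.057 in footprints) and with library totals (edgeR adjusted p = 0.106 and 0.061). The RNA call did not hold without cKO replicate 1, cKO replicate 2 or Ctrl replicate 1 (edgeR adjusted p between 0.061 and 0.223), nor the footprint call without any 1 of the 4 libraries (edgeR adjusted p between 0.052 and 0.210).

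Cpt1a, an outer membrane carnitine palmitoyltransferase and the target of malonyl-CoA, had 90.6 and 89.8 CPM in cKO, against 98.1 and 104 CPM in Ctrl. Its footprints reached 106 and 105 CPM in cKO, against 125 and 127 CPM in Ctrl. The footprint decrease passed (-0.26 ± 0.08 SE, edgeR adjusted p = 0.04) and the RNA decrease did not (-0.16 ± 0.06 SE, edgeR adjusted p = 0.112), and the footprint call was lost with library totals (edgeR adjusted p = 0.136) and when any 1 of the 4 libraries was left out (edgeR adjusted p between 0.058 and 0.246). Slc25a20, the carnitine-acylcarnitine translocase, had 150.0 and 157 CPM in cKO, against 171 and 164 CPM in Ctrl and did not pass in RNA (-0.12 ± 0.06 SE, edgeR adjusted p = 0.197) or footprints (-0.23 ± 0.08 SE, edgeR adjusted p = 0.055). The Slc25a20 footprint decrease did pass by DESeq2 (adjusted p = 0.0441). In edgeR it passed with a minimum of 1 count (adjusted p = 0.0384) and with replicate number as a block (adjusted p = 0.0272).

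Cpt1b, the muscle isoform of the outer membrane enzyme, could hardly be measured in these tables. It had 23 and 21 RNA counts in cKO, against 24 and 24 in Ctrl. On its 772-codon frame there were 120 and 133 footprints in cKO, against 119 and 158 in Ctrl. A 19-codon frame ahead of it held more, 163 and 195 footprints in cKO against 95 and 98 in Ctrl, so that the frame with most footprints gave a change of 0.49 and the longest frame -0.51, and neither passed. The record Gm44502 (a Chkb-Cpt1b readthrough transcript) covers the whole span of Cpt1b and had 0 counts in all 4 heart RNA libraries. Whether reads shared by both records were left out of the counts was not tested.

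Both genes of malonyl-CoA control fell in both assays. Acacb makes malonyl-CoA at the outer mitochondrial membrane and Mlycd removes it. Acacb had 339.8 and 373 CPM in cKO, against 461 and 450.4 CPM in Ctrl, and footprints of 223 and 239 CPM in cKO, against 317 and 304 CPM in Ctrl. Mlycd had 96.4 and 96.4 CPM in cKO, against 131 and 129.9 CPM in Ctrl. The Mlycd footprints were 146 and 152 CPM in cKO, against 206 and 231 CPM in Ctrl. Every cKO library lay under every Ctrl library for both genes, with -0.36 ± 0.06 SE, edgeR adjusted p = 0.000574 for Acacb RNA, -0.43 ± 0.08 SE, edgeR adjusted p = 0.00142 for Acacb footprints, -0.44 ± 0.06 SE, edgeR adjusted p = 0.000172 for Mlycd RNA and -0.55 ± 0.08 SE, edgeR adjusted p = 0.000282 for Mlycd footprints.

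Acyl-CoA dehydrogenases carry out the first step of each round, and the enzymes for very long, long, medium and short chains all fell in both assays. Acadvl, for very long chains, had 396 and 398 CPM in cKO, against 487 and 497 CPM in Ctrl. Its footprints were 1428 and 1434 CPM in cKO, against 2018 and 1979.6 CPM in Ctrl. The 2 libraries of each genotype were close to each other and apart from the other genotype, with -0.31 ± 0.05 SE, edgeR adjusted p = 0.000715 and -0.48 ± 0.07 SE, edgeR adjusted p = 0.000308. Acadl, for long chains, had 753 and 749 CPM in cKO, against 887 and 913 CPM in Ctrl, a change of -0.26 ± 0.05 SE, edgeR adjusted p = 0.00175. Acadl footprints were 1657 and 1630.1 CPM in cKO, against 2337 and 2076 CPM in Ctrl, a change of -0.42 ± 0.08 SE, edgeR adjusted p = 0.00163. Each cKO library was below each Ctrl library in both assays.

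Acadm, the medium-chain enzyme, stood at 660.1 and 635 CPM in cKO, against 813 and 796 CPM in Ctrl. Acadm footprints stood at 892 and 805 CPM in cKO, against 1119.8 and 1114 CPM in Ctrl. Both decreases passed (-0.31 ± 0.05 SE, edgeR adjusted p = 0.00052 and -0.40 ± 0.08 SE, edgeR adjusted p = 0.00245), the footprint one not without cKO replicate 2 (edgeR adjusted p = 0.060). Acads, the short-chain enzyme, had 155 and 153 CPM in cKO, against 175 and 183 CPM in Ctrl, a change of -0.21 ± 0.06 SE, edgeR adjusted p = 0.0248, a call that DESeq2 did not make (adjusted p = 0.097) and that was lost with library totals (edgeR adjusted p = 0.154) and without cKO replicate 1, cKO replicate 2 or Ctrl replicate 2 (edgeR adjusted p between 0.084 and 0.154). Footprints on Acads were 323 and 330.2 CPM in cKO, against 391 and 438 CPM in Ctrl, a change of -0.34 ± 0.08 SE, edgeR adjusted p = 0.00795, which did not pass without cKO replicate 1 (edgeR adjusted p = 0.080). Acad9, known as an assembly factor of respiratory complex I, did not pass, with 36.2 and 36.1 CPM in cKO, against 36.1 and 36.5 CPM in Ctrl (-0.01 ± 0.08 SE, edgeR adjusted p = 0.968) and a footprint change of 0.03 ± 0.08 SE, edgeR adjusted p = 0.86.

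The enzymes from hydration to thiolysis complete the round. Hadha and Hadhb form the trifunctional protein of long-chain oxidation, Echs1 hydrates and Hadh oxidizes shorter chains, and Acaa2 and Acaa1a are the mitochondrial and peroxisomal thiolases. Of these 6 genes, 4 fell in RNA (Hadhb, Echs1, Acaa2 and Acaa1a) and 4 in footprints (Hadha, Hadh, Echs1 and Acaa2). Echs1 (ENSMUSG00000025465) had 253 and 228 CPM in cKO, against 328 and 320.1 CPM in Ctrl. Its footprints were 502 and 489 CPM in cKO, against 872 and 804 CPM in Ctrl. The genotypes were apart in both assays, and both changes passed (-0.43 ± 0.06 SE, edgeR adjusted p = 0.000185 in RNA and -0.76 ± 0.08 SE, edgeR adjusted p = 7.85e-06 in footprints). Echs1 overlaps Paox in the annotation.

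Hadh RNA did not pass, with 615 and 617 CPM in cKO, against 623 and 651 CPM in Ctrl (-0.05 ± 0.05 SE, edgeR adjusted p = 0.596). Hadh footprints were lower, with 696 and 686 CPM in cKO, against 941 and 882 CPM in Ctrl (-0.40 ± 0.08 SE, edgeR adjusted p = 0.00179). Hadha read likewise, with 1274 and 1243 CPM in cKO, against 1355 and 1337 CPM in Ctrl in RNA and 1895 and 1889.6 CPM in cKO, against 2404 and 2336 CPM in Ctrl in footprints. For both genes the footprints fell while the RNA change missed the threshold (-0.10 ± 0.05 SE, edgeR adjusted p = 0.193 and -0.32 ± 0.07 SE, edgeR adjusted p = 0.00631 for Hadha), and the Hadha footprint call was lost without either cKO library (edgeR adjusted p = 0.061 and 0.055).

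Hadhb RNA was 859.7 and 840.0 CPM in cKO, against 996 and 999.8 CPM in Ctrl. Hadhb footprints were fewer and scattered, with 74.1 and 105 CPM in cKO, against 104 and 130.3 CPM in Ctrl. RNA fell (-0.23 ± 0.05 SE, edgeR adjusted p = 0.00374), and the overlapping footprints did not pass (-0.39 ± 0.14 SE, edgeR adjusted p = 0.0644). The Hadhb footprint decrease did pass in edgeR with a minimum of 1 count (adjusted p = 0.000287) and with replicate number as a block (adjusted p = 0.000194). Acaa2 had 644 and 628 CPM in cKO, against 721 and 732 CPM in Ctrl, a change of -0.19 ± 0.05 SE, edgeR adjusted p = 0.0163, which DESeq2 did not call (adjusted p = 0.060) and which was lost with library totals (edgeR adjusted p = 0.151) and without cKO replicate 2, Ctrl replicate 1 or Ctrl replicate 2 (edgeR adjusted p between 0.054 and 0.082). Acaa2 footprints were 1625 and 1605 CPM in cKO, against 2078 and 2169 CPM in Ctrl, a change of -0.39 ± 0.07 SE, edgeR adjusted p = 0.00164. Acaa1a had 47.8 and 49.8 CPM in cKO, against 56.1 and 58.3 CPM in Ctrl (-0.23 ± 0.07 SE, edgeR adjusted p = 0.0488), a call that DESeq2 did not make (adjusted p = 0.251) and that was lost with library totals (edgeR adjusted p = 0.199), with a minimum of 1 count (edgeR adjusted p = 0.057) and without any 1 library (edgeR adjusted p between 0.079 and 0.250), and its footprints did not pass (-0.26 ± 0.09 SE, edgeR adjusted p = 0.0734). Its close copy Acaa1b had 1 and 2 RNA counts in cKO, against 0 and 1 in Ctrl, and how reads that match both copies were counted is unknown here.

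Of the 3 enzymes for unsaturated chains, 1 fell in each assay, Eci1. Eci1 and Eci2 shift double bonds and Decr1 reduces them. Eci1 had 149.7 and 147 CPM in cKO, against 201 and 191 CPM in Ctrl. Footprints on Eci1 came to 424 and 404 CPM in cKO, against 597 and 613 CPM in Ctrl. It fell in both assays with no overlap (-0.40 ± 0.06 SE, edgeR adjusted p = 0.000264, -0.55 ± 0.08 SE, edgeR adjusted p = 0.000132). Eci2, with 124 and 117 CPM in cKO, against 114 and 122 CPM in Ctrl, and Decr1, with 312 and 299.8 CPM in cKO, against 338 and 337 CPM in Ctrl, did not pass in RNA (0.03 ± 0.07 SE, edgeR adjusted p = 0.845 and -0.14 ± 0.05 SE, edgeR adjusted p = 0.0891) or in footprints (-0.03 ± 0.08 SE, edgeR adjusted p = 0.826 and -0.05 ± 0.08 SE, edgeR adjusted p = 0.778).

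Of the 3 electron transfer genes, 2 fell in RNA and 2 in footprints. Etfa and Etfb encode both subunits of electron transfer flavoprotein, and Etfdh passes its electrons to ubiquinone. Etfa had 274 and 260.3 CPM in cKO, against 339.7 and 329 CPM in Ctrl. Its footprints were at 428 and 402 CPM in cKO, against 577 and 506 CPM in Ctrl. Both fell (-0.32 ± 0.06 SE, edgeR adjusted p = 0.00101, -0.38 ± 0.08 SE, edgeR adjusted p = 0.00503), the footprint call not without cKO replicate 2 (edgeR adjusted p = 0.055). Etfb had few RNA counts, 17.1 and 14.7 CPM in cKO, against 20.7 and 19.9 CPM in Ctrl, and missed the threshold (-0.35 ± 0.11 SE, edgeR adjusted p = 0.0508), while its footprints, 143 and 129 CPM in cKO, against 185 and 184 CPM in Ctrl, fell (-0.44 ± 0.08 SE, edgeR adjusted p = 0.00174). The span of Etfb overlaps Cldnd2. Etfdh had 414 and 426 CPM in cKO, against 478 and 462 CPM in Ctrl, a change of -0.16 ± 0.05 SE, edgeR adjusted p = 0.0488, a call lost by DESeq2 (adjusted p = 0.180), with library totals (edgeR adjusted p = 0.335), with a minimum of 50 counts (edgeR adjusted p = 0.0504) and without any 1 library (edgeR adjusted p between 0.072 and 0.273), and its footprint change did not pass (-0.19 ± 0.08 SE, edgeR adjusted p = 0.101).

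Thioesterases, which release fatty acids from coenzyme A, held both the largest decrease in RNA (Acot1) and the 1 RNA increase that passed the test (Acot13). Acot1 (ENSMUSG00000072949), the cytosolic acyl-CoA thioesterase, had 21.8 and 22.9 CPM in cKO, against 41.3 and 39.4 CPM in Ctrl. Its footprints were 9.74 and 9.06 CPM in cKO, against 18.8 and 18.7 CPM in Ctrl. The cKO libraries were at about the same level as each other and far below Ctrl, with -0.85 ± 0.09 SE, edgeR adjusted p = 1.29e-05 in RNA and -0.99 ± 0.12 SE, edgeR adjusted p = 4.84e-05 in footprints. Acot2, its mitochondrial relative, had 107 and 118 CPM in cKO, against 106 and 112 CPM in Ctrl (0.05 ± 0.07 SE, edgeR adjusted p = 0.709), and footprints of 130.3 and 129 CPM in cKO, against 115 and 129.7 CPM in Ctrl (0.08 ± 0.09 SE, edgeR adjusted p = 0.572), which overlapped. Acot13, a mitochondria-associated thioesterase, had 202 and 178 CPM in cKO, against 161 and 156 CPM in Ctrl and rose in RNA (0.26 ± 0.07 SE, edgeR adjusted p = 0.0151). Its footprints, 1843 and 1916 CPM in cKO, against 1712 and 1577 CPM in Ctrl, did not pass (0.19 ± 0.08 SE, edgeR adjusted p = 0.105), and without cKO replicate 1 the RNA call was lost (0.17, edgeR adjusted p = 0.193).

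Acot1 and Acot2 are close copies that neighbour each other on chromosome 12, and the sources used here do not say how reads that match both were counted. Their start regions, 250 bases before to 50 after each annotated start (RefSeq, GRCm38.p6), are shown because 1 copy fell and the other did not pass the test. Acot1 lies at chr12:84009252-84009551 and Acot2 at chr12:83987611-83987910, both on the plus strand. Capitals mark their longest shared run, 9 bases, at -73 to -65 from the Acot1 start and -39 to -31 from the Acot2 start. In a global alignment 178 of 354 columns were identical, which is 50.3%. How long a run and how high an identity unrelated regions of this length would share was not tested. The run is therefore only a description of these letters.
Acot1: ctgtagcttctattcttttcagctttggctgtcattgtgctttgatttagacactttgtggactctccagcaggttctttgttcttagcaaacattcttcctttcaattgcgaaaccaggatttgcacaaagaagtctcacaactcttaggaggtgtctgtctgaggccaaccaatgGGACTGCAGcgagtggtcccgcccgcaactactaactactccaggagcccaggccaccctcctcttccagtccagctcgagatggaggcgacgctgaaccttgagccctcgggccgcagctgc
Acot2: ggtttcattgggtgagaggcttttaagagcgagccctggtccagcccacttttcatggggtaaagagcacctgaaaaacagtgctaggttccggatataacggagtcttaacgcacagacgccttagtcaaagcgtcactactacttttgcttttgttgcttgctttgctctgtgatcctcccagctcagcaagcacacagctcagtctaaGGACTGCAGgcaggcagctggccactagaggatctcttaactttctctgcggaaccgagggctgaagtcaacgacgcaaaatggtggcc

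Droplet genes control release of stored fatty acids. Plin5 coats droplets beside mitochondria, Pnpla2 encodes adipose triglyceride lipase and Lipe hormone-sensitive lipase. Plin5 had 121 and 114 CPM in cKO, against 149 and 150.5 CPM in Ctrl. Its footprints were 272 and 276 CPM in cKO, against 373 and 416 CPM in Ctrl. Plin5 fell in both assays (-0.35 ± 0.06 SE, edgeR adjusted p = 0.00126, -0.52 ± 0.08 SE, edgeR adjusted p = 0.000326). Lipe had 63.3 and 65.0 CPM in cKO, against 72.1 and 76.3 CPM in Ctrl, just short of the threshold (-0.21 ± 0.07 SE, edgeR adjusted p = 0.0546), and footprints of 33.8 and 34.7 CPM in cKO, against 45.1 and 46.8 CPM in Ctrl, which fell (-0.43 ± 0.09 SE, edgeR adjusted p = 0.00476), though not without cKO replicate 1 (edgeR adjusted p = 0.062). Pnpla2, with 476 and 509 CPM in cKO, against 449.9 and 461 CPM in Ctrl, did not pass in RNA (0.11 ± 0.05 SE, edgeR adjusted p = 0.197) or footprints (-0.02 ± 0.08 SE, edgeR adjusted p = 0.928). With library totals Pnpla2 RNA rose (0.19, edgeR adjusted p = 0.0235).

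Translational efficiency, the footprint change relative to the RNA change, was tested by the genotype-by-assay interaction over the 8 heart libraries. By edgeR 0 of 40 members passed, beside 0.126% of 12662 genes (0.0711% higher and 0.0553% lower), while 6 members had an unadjusted p under 0.05 and DESeq2 called 1, Hadh. Estimates were below zero for 31 members and above for 9, with a median of -0.13, against -0.02 for all genes. The lowest was that of Hadh (-0.37 ± 0.09 SE, edgeR adjusted p = 0.135; DESeq2 adjusted p = 0.0415), whose RNA missed the threshold and whose footprints fell. Echs1 (-0.34 ± 0.10 SE, edgeR adjusted p = 0.233) and Hadha (-0.24 ± 0.09 SE, edgeR adjusted p = 0.378) were next. The 4 synthetases lay between 0.03 and 0.25 on this scale.

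**Figure D4:**
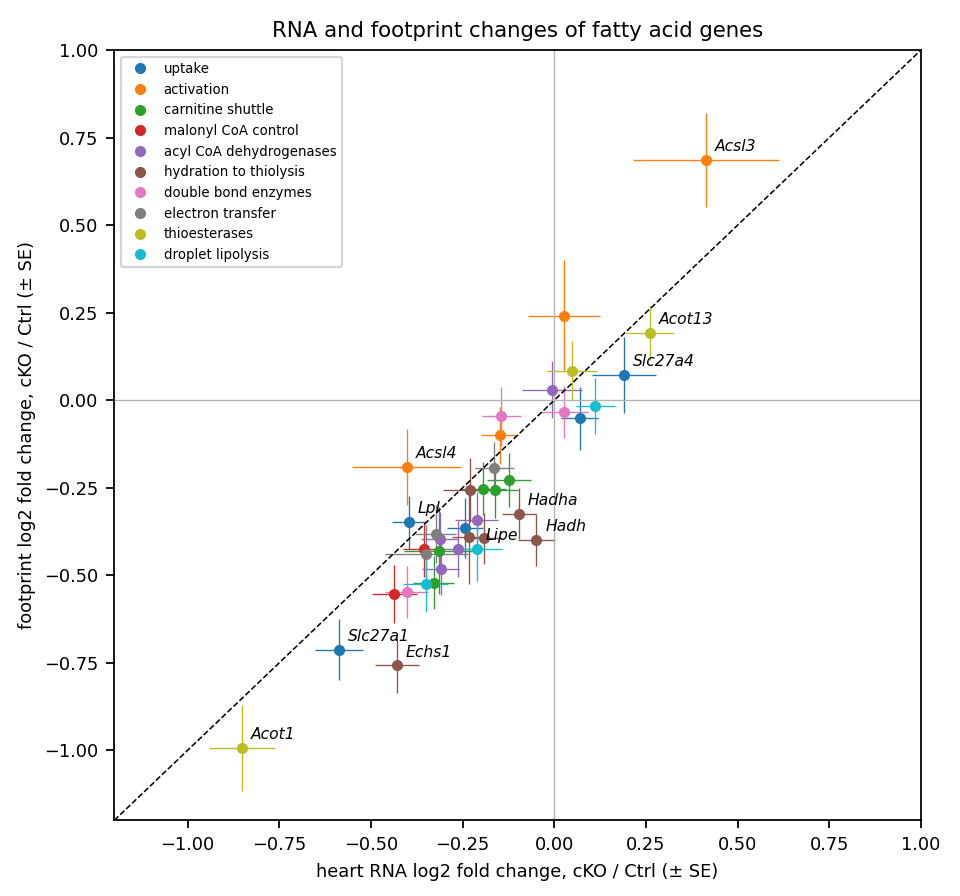
Log2 fold change (cKO over Ctrl) of footprints against that of RNA for 39 fatty acid genes, with ± SE bars, coloured by role; the dashed line marks equal change. Most genes lie below zero on both axes and under the line, Hadh and Hadha combine a small RNA change with a footprint decrease, and Acsl3 stands alone at upper right.

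Some members carry more than 1 reading frame in the footprint table, and these were compared within the gene in a fit added after the data were seen. There were 67 member frames, and 18 members had more than 1. By edgeR's diffSpliceDGE 0 frames of the 13 members tested differed from the rest of their gene, beside 0.232% of 6478 frames, and 7 member frames had an unadjusted p under 0.05. On Acsl1 a 24-codon frame that ends before the 699-codon main frame had 44.5 and 70.6 CPM in cKO, against 90.4 and 98.3 CPM in Ctrl, a change of -0.72 ± 0.15 SE (edgeR adjusted p = 0.00551). The main frame of Acsl1 changed by -0.11 ± 0.08 SE (edgeR adjusted p = 0.438), and the difference within the gene missed the threshold (edgeR adjusted p = 0.0630). The 24-codon frame took 2.42% and 3.64% of Acsl1 footprints in cKO, against 4.14% and 5.03% in Ctrl. On Cd36 a 37-codon upstream frame took 11.3% of footprints in cKO and 8.84% in Ctrl, with no difference past the threshold (edgeR adjusted p = 0.431).

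Other genes of fatty acid metabolism were grouped in lists by function. The lists were drawn broadly, and not every gene on them acts in fatty acid oxidation. Their counts stand beside 14.4% of all genes called in heart RNA and 16.4% in footprints. Of 16 other mitochondrial oxidation genes, 5 fell in RNA and 11 in footprints and none rose, with medians of -0.17 and -0.32. Ech1, a dienoyl-CoA isomerase, had RNA at 659 and 621 CPM in cKO, against 823 and 869.5 CPM in Ctrl and fell in both assays (-0.40 ± 0.05 SE, edgeR adjusted p = 9.57e-05 in RNA, -0.81 ± 0.08 SE, edgeR adjusted p = 5.04e-06 in footprints). Acadsb, for branched short chains, fell in RNA (-0.64 ± 0.07 SE, edgeR adjusted p = 2.74e-05), and Pccb, a subunit of propionyl-CoA carboxylase, fell in both (-0.61 ± 0.06 SE, edgeR adjusted p = 1.3e-05; -0.57 ± 0.08 SE, edgeR adjusted p = 0.000154 in footprints). Hsd17b10 fell in footprints (-0.49 ± 0.08 SE, edgeR adjusted p = 0.000377).

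Peroxisomal oxidation genes mostly did not pass, with 3 of 19 lower in RNA and 4 of 20 in footprints. None rose. Shares called in either direction, 15.8% and 20%, were near the 14.4% and 16.4% of all genes. Counted by direction, 6.26% of all genes fell in RNA and 7.33% in footprints, which is less than these shares. Phyh, which starts alpha-oxidation, fell in both (-0.29 ± 0.05 SE, edgeR adjusted p = 0.00105 in RNA, -0.42 ± 0.07 SE, edgeR adjusted p = 0.00117 in footprints). So did the transporter Abcd3 (-0.37 ± 0.07 SE, edgeR adjusted p = 0.00169 in RNA, -0.69 ± 0.10 SE, edgeR adjusted p = 0.000205 in footprints) and the bifunctional enzyme Ehhadh (-0.55 ± 0.14 SE, edgeR adjusted p = 0.0195 in RNA, -0.74 ± 0.12 SE, edgeR adjusted p = 0.000746 in footprints). Of 23 other uptake, activation and transport genes, 7 fell and 1 rose in RNA, and 5 fell and 2 rose in footprints. Acsf2, a medium-chain acyl-CoA synthetase, rose in both (0.77 ± 0.08 SE, edgeR adjusted p = 1.79e-05; 0.98 ± 0.11 SE, edgeR adjusted p = 2.67e-05), with RNA at 59.3 and 64.8 CPM in cKO, against 38.5 and 34.4 CPM in Ctrl. Acss1, the mitochondrial acetyl-CoA synthetase, fell in both (-0.46 ± 0.05 SE, edgeR adjusted p = 3.7e-05; -0.60 ± 0.07 SE, edgeR adjusted p = 5.91e-05), Acot11 fell in RNA (-0.48 ± 0.10 SE, edgeR adjusted p = 0.00465) and the carnitine and ergothioneine transporter Slc22a4 rose in footprints (1.20 ± 0.18 SE, edgeR adjusted p = 0.000243).

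Of 16 triglyceride storage genes, 5 fell and 1 rose in RNA, and 7 fell and 2 rose in footprints. Gpam, the mitochondrial glycerol-phosphate acyltransferase that starts triglyceride synthesis, rose in both (0.42 ± 0.05 SE, edgeR adjusted p = 8.65e-05; 0.44 ± 0.08 SE, edgeR adjusted p = 0.00175). Lpin1 and Plin4 fell in both (-0.44 ± 0.06 SE, edgeR adjusted p = 8.55e-05 and -0.31 ± 0.05 SE, edgeR adjusted p = 0.00107 in RNA, -0.53 ± 0.08 SE, edgeR adjusted p = 0.000323 and -0.47 ± 0.09 SE, edgeR adjusted p = 0.00148 in footprints).

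Of 20 nuclear receptor, coactivator and AMPK genes, 5 fell in RNA and none rose, and 5 fell and 1 rose in footprints. Ppargc1a, which encodes PGC-1alpha, had 87.9 and 88.4 CPM in cKO, against 187 and 159.6 CPM in Ctrl, a change of -0.97 ± 0.07 SE, edgeR adjusted p = 4.85e-07. Its footprints were 123 and 116 CPM in cKO, against 208 and 194 CPM in Ctrl, a change of -0.75 ± 0.08 SE, edgeR adjusted p = 1.52e-05. Both cKO libraries had far less than either Ctrl library. Ppara had RNA at 34.5 and 36.2 CPM in cKO, against 46.6 and 45.8 CPM in Ctrl and fell (-0.39 ± 0.08 SE, edgeR adjusted p = 0.00366), as did Rxrg (-0.41 ± 0.08 SE, edgeR adjusted p = 0.00232). In footprints Klf15 fell (-0.43 ± 0.09 SE, edgeR adjusted p = 0.00381) and Esrrg rose (0.44 ± 0.10 SE, edgeR adjusted p = 0.00577).

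Of 13 further PPAR target genes tested in RNA, 2 fell and 1 rose, and of 14 in footprints 3 fell and 2 rose. Slc25a42 (-0.62 ± 0.07 SE, edgeR adjusted p = 4.72e-05) and Ucp3 (-0.50 ± 0.10 SE, edgeR adjusted p = 0.00271) fell in RNA and in footprints (-0.46 ± 0.09 SE, edgeR adjusted p = 0.00221; -0.51 ± 0.10 SE, edgeR adjusted p = 0.00232). Ucp2, a mitochondrial uncoupling protein relative, rose in RNA (0.31 ± 0.06 SE, edgeR adjusted p = 0.00176) and more in footprints (1.09 ± 0.10 SE, edgeR adjusted p = 1.8e-06), and was the 1 gene of these lists called for translational efficiency (0.76 ± 0.11 SE, edgeR adjusted p = 0.00905).

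Start regions of 33 of the 41 members, 38 regions in all, were found in the RefSeq promoter table (GRCm38.p6). They were searched on both strands for the nuclear receptor core motif AGGTCA. It was present for 7 of 33 members, 21.2%, beside 18.1% of 27025 genes. The extended form TCAAGGTCA, which contains the shorter one, was in 0 of 33, beside 0.466% of genes. Windows of up to 25 bases on either side are shown for the 5 members that fell in both assays and hold the motif ahead of an annotated start site. The motif is in capitals (TGACCT where it lies on the opposite strand). The other members with a match were Cpt1a, whose RNA did not pass, and Acacb, whose match lies after an annotated start site inside the gene. Acadvl is at chr11:70015485-70015540, Echs1 at chr7:140116474-140116529, Acadm at chr3:153944862-153944893, Cd36 at chr5:17836094-17836146 and Plin5 at chr17:56117688-56117743, all on the minus strand.
Acadvl: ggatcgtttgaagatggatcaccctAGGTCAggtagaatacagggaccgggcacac
Echs1: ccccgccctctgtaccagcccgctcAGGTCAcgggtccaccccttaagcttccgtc
Acadm: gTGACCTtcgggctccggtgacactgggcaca
Cd36: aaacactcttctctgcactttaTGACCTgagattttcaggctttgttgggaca
Plin5: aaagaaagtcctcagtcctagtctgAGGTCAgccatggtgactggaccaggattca
The first base of the motif lies at -87 in Acadvl, -83 in Echs1, -228 in Cd36 and -170 in Plin5. Positions are counted from the start site of that region on the strand of the gene. In Acadm the motif lies next to the upstream edge of the region. The start site used for Cd36 lies inside the gene, and Plin5 holds a further match after another annotated start site. The share among members was near that of all genes, and a match is a description of these letters only.

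In H9C2 cells the fatty acid genes did not share 1 direction. Of 37 members tested 6 rose, 7 fell and 24 did not pass, against a background in which 13.6% of 14801 genes rose and 11.5% fell, 25.1% in all. With library totals 8 rose and 6 fell. Their median log2 fold change was -0.03, beside 0.00 for all genes, and their summed level ran from 2682 to 2786 CPM in M1-null and from 2704 to 2734 CPM in WT, which overlap. The libraries were apart for 17 of 37 members, 9 higher and 8 lower, where 42.6% of all genes were. H9C2 cells held few heart markers. Myl2 and Ryr2 had 0 counts in all 6 libraries, Myh6 was at most 0.117 CPM, and Tnnt2 had 7.19, 8.31 and 7.88 CPM in M1-null, against 25, 22.0 and 22.6 CPM in WT. Fabp3 (0.0636 to 0.188 CPM in M1-null and 0.109 to 0.182 CPM in WT), Acacb and Plin5, which were well detected in heart, were close to zero in H9C2 as well.

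Cpt1a, which can set the rate of fatty acid entry into mitochondria, rose most. It had 113, 109 and 108 CPM in M1-null cells, against 59.2, 53.5 and 66.4 CPM in WT cells. All M1-null libraries were above all WT libraries (0.89 ± 0.08 SE, edgeR adjusted p = 0.000102). Lpl rose, with 85.3, 86.0 and 85.9 CPM in M1-null cells, against 66.9, 62.8 and 66.9 CPM in WT cells (0.39 ± 0.05 SE, edgeR adjusted p = 0.000781), and the libraries of each genotype lay close together. Acadvl rose, with 20.6, 24.4 and 23.1 CPM in M1-null cells, against 17.4, 17.9 and 15.7 CPM in WT cells (0.42 ± 0.09 SE, edgeR adjusted p = 0.0101; adjusted p = 0.053 without M1-null replicate 2).

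Acaa2 rose, with 58.8, 62.0 and 57.2 CPM in M1-null cells, against 47.0, 49.4 and 45.6 CPM in WT cells, a change of 0.33 ± 0.06 SE, edgeR adjusted p = 0.00446. Hadh had 20.9, 21.7 and 20.5 CPM in M1-null cells, against 15.3, 17.3 and 17.3 CPM in WT cells, a change of 0.34 ± 0.08 SE, edgeR adjusted p = 0.0142. Pnpla2 had 55.1, 59.1 and 53.2 CPM in M1-null cells, against 43.1, 50.1 and 44.3 CPM in WT cells, a change of 0.28 ± 0.07 SE, edgeR adjusted p = 0.0237. In all 3 genes each M1-null library was above each WT library. The Hadh and Pnpla2 calls were lost without single libraries, with edgeR adjusted p between 0.052 and 0.102, namely without M1-null replicate 1, M1-null replicate 2 or WT replicate 1 for both and also without M1-null replicate 3 for Pnpla2.

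Of the synthetases, 3 of 4 fell in H9C2. Acsl3 had 44.6, 48.9 and 49.6 CPM in M1-null cells, against 86.3, 87.5 and 87.0 CPM in WT cells (-0.87 ± 0.06 SE, edgeR adjusted p = 2.45e-05). Acsl1 had 85.1, 88.6 and 87.4 CPM in M1-null cells, against 135, 126 and 135 CPM in WT cells (-0.60 ± 0.05 SE, edgeR adjusted p = 7.79e-05). Acsl4 had 65.7, 65.7 and 64.4 CPM in M1-null cells, against 104, 89.7 and 104 CPM in WT cells (-0.61 ± 0.07 SE, edgeR adjusted p = 0.000347). All 3 were lower in every M1-null library. Acsl5 had 328, 334 and 324 CPM in M1-null cells, against 339, 331 and 339 CPM in WT cells and did not pass (-0.03 ± 0.04 SE, edgeR adjusted p = 0.614).

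Echs1 fell, with 19.9, 23.6 and 23.0 CPM in M1-null cells, against 33.8, 31.5 and 27.1 CPM in WT cells (-0.47 ± 0.10 SE, edgeR adjusted p = 0.01). Acaa1a fell, with 18.6, 18.1 and 17.8 CPM in M1-null cells, against 26.8, 25.9 and 23.2 CPM in WT cells (-0.48 ± 0.08 SE, edgeR adjusted p = 0.00223). Eci1 fell, with 20.5, 19.3 and 19.7 CPM in M1-null cells, against 26.5, 28.4 and 24.6 CPM in WT cells (-0.42 ± 0.07 SE, edgeR adjusted p = 0.004). Each was lower in every M1-null library than in any WT library. Crat had 70.7, 68.3 and 66.6 CPM in M1-null cells, against 77.4, 78.7 and 78.2 CPM in WT cells and fell by a small step (-0.19 ± 0.05 SE, edgeR adjusted p = 0.0227), lost with library totals (edgeR adjusted p = 0.056) and without M1-null replicate 2, M1-null replicate 3 or WT replicate 1 (edgeR adjusted p between 0.072 and 0.113).

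The remaining 24 members tested in H9C2 had changes between -0.44 and 0.67. Hadha had 480.0, 488 and 472 CPM in M1-null cells, against 448, 448 and 438 CPM in WT cells (0.11 ± 0.04 SE, edgeR adjusted p = 0.0937). Hadhb had 688, 726 and 714 CPM in M1-null cells, against 669.6, 686 and 670.4 CPM in WT cells (0.07 ± 0.04 SE, edgeR adjusted p = 0.277). The libraries of Hadha were apart by genotype and those of Hadhb nearly met, and neither gene passed. Slc27a1 had 33.6, 31.6 and 31.2 CPM in M1-null cells, against 28.0, 28.3 and 28.9 CPM in WT cells, apart by genotype but past the threshold in edgeR only with library totals (adjusted p = 0.033) and by DESeq2 (adjusted p = 0.041).

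Among other pathway genes of H9C2, shares called are set beside the 25.1% of all genes called in either direction. These shares were 66.7% of PPAR target genes, 50% of uptake and activation genes and 42.9% of mitochondrial genes. Peroxisomal genes had 33.3%, storage genes 28.6% and regulators 20%, near or below the share of all genes. Of 9 PPAR target genes tested, 6 rose and none fell. These included Pdk4, which restrains pyruvate oxidation (2.66 ± 0.36 SE, edgeR adjusted p = 0.000973), with 1.12, 0.732 and 0.979 CPM in M1-null cells, against 0.111, 0.171 and 0.163 CPM in WT cells, Angptl4, an inhibitor of lipoprotein lipase (1.39 ± 0.20 SE, edgeR adjusted p = 0.00127), and Ucp2 (0.68 ± 0.08 SE, edgeR adjusted p = 0.000572). Of 16 other uptake and activation genes, 2 rose and 6 fell, among them Acss2, the cytosolic acetyl-CoA synthetase (-1.68 ± 0.07 SE, edgeR adjusted p = 2.47e-06), which fell, and Cpt1c (0.48 ± 0.07 SE, edgeR adjusted p = 0.00129), which rose. Of 15 regulators 1 rose and 2 fell: Prkag2, an AMPK subunit (2.15 ± 0.19 SE, edgeR adjusted p = 0.000115), Ppard (-0.53 ± 0.07 SE, edgeR adjusted p = 0.000609) and Rxrb (-0.31 ± 0.07 SE, edgeR adjusted p = 0.0149). Of 14 genes listed as other mitochondrial, not all of them enzymes of fatty acid oxidation, 1 rose and 5 fell. Those that fell included Hsd17b10 (-0.43 ± 0.06 SE, edgeR adjusted p = 0.00149), Pcca (-0.70 ± 0.13 SE, edgeR adjusted p = 0.00511) and Nudt2 (-0.41 ± 0.10 SE, edgeR adjusted p = 0.0193). Of 18 peroxisomal genes 2 rose and 4 fell, including Cat (0.54 ± 0.06 SE, edgeR adjusted p = 0.00043), Pex5 (-0.68 ± 0.07 SE, edgeR adjusted p = 0.000308) and Nudt7 (-0.44 ± 0.11 SE, edgeR adjusted p = 0.0211). Of 14 storage genes 3 rose, including Bscl2 (0.36 ± 0.07 SE, edgeR adjusted p = 0.0049) and Gpat4 (0.21 ± 0.06 SE, edgeR adjusted p = 0.0297), and Lpin1 fell (-1.03 ± 0.19 SE, edgeR adjusted p = 0.00511).

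The heart RNA change and the H9C2 RNA change of each gene were compared in 1 model over the 4 heart and 6 H9C2 libraries, on symbols shared by both species. Of 37 members tested, 12 had a lower change in heart and 2 a higher one, against a background of 10.1% lower and 9.22% higher among 10437 genes, 19.3% in all, and with library totals 9 were lower and 3 higher. The median difference was -0.18, beside -0.02 for all genes. Cpt1a (-1.06 ± 0.11 SE, edgeR adjusted p = 7.75e-05), Lpl (-0.80 ± 0.07 SE, edgeR adjusted p = 3.18e-05), Acadvl (-0.74 ± 0.11 SE, edgeR adjusted p = 0.000706) and Acaa2 (-0.53 ± 0.08 SE, edgeR adjusted p = 0.000911) rose in H9C2 and had a fall or a negative estimate in heart RNA. Slc27a1 (-0.78 ± 0.09 SE, edgeR adjusted p = 0.000112) and Acot1 (-0.89 ± 0.15 SE, edgeR adjusted p = 0.00205) fell in heart and did not pass in H9C2. Acot1 had 1.22, 1.42 and 1.21 CPM in M1-null cells, against 1.22, 1.22 and 1.34 CPM in WT cells.

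Acsl3 differed most in the other direction (1.27 ± 0.16 SE, edgeR adjusted p = 0.000243), with a fall in H9C2 and a positive estimate in heart RNA, and Acsl1 also had the higher change in heart (0.44 ± 0.08 SE, edgeR adjusted p = 0.00212). Smaller differences passed for Hadh (-0.40 ± 0.09 SE, edgeR adjusted p = 0.0105), Acadl (-0.42 ± 0.10 SE, edgeR adjusted p = 0.0122) and Hadhb (-0.31 ± 0.07 SE, edgeR adjusted p = 0.00932). Those of Mlycd (-0.41 ± 0.11 SE, edgeR adjusted p = 0.0257), Hadha (-0.22 ± 0.07 SE, edgeR adjusted p = 0.0449) and Slc22a5 (-0.48 ± 0.16 SE, edgeR adjusted p = 0.0499) passed by little and were lost with library totals. Left-out libraries ended the call of Mlycd in 6 of 10 cases, of Hadha in 9 and of Slc22a5 in 8, and that of Acadl without Ctrl replicate 2 (edgeR adjusted p = 0.051). Echs1 and Eci1 fell in both systems, and their differences, 0.03 ± 0.14 SE, edgeR adjusted p = 0.9 for Echs1 and 0.00 ± 0.09 SE, edgeR adjusted p = 0.98 for Eci1, did not pass. In all 4 members fell in heart RNA and in H9C2 (Crat, Echs1, Acaa1a and Eci1), while 3 fell in heart RNA and rose in H9C2 (Lpl, Acadvl and Acaa2). The Mettl1 RNA decrease itself was smaller in heart than in H9C2 (difference 1.23 ± 0.23 SE, edgeR adjusted p = 0.00295). Species, tissue, age, means of Mettl1 loss and size of the Mettl1 RNA change all differ between the systems and cannot be told apart.

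**Figure D5:**
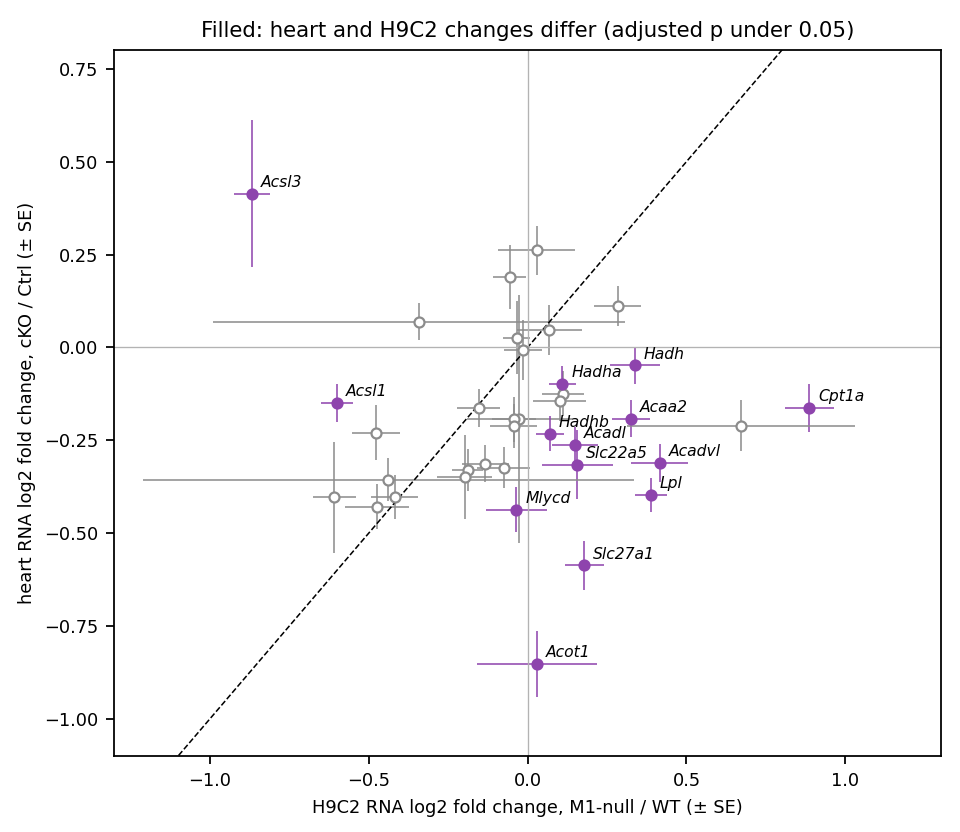
Log2 fold change ± SE of heart RNA (cKO over Ctrl) against that of H9C2 RNA (M1-null over WT) for the 37 fatty acid genes tested in both, with filled purple points where both changes differ at an adjusted p under 0.05 (edgeR) and the dashed line at equal change. Acsl3 and Acsl1 lie above the line, 12 filled genes lie below it, and Cpt1a is farthest to the right.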

How the data were processed

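Gene expression was measured by RNA-seq and Ribo-seq in mouse hearts and by RNA-seq in H9C2. The authors deposited whole-number counts per gene (heart RNA, H9C2) and per open reading frame (Ribo-seq), with no normalization, as read from the values. Per the submitters' processing notes, the builds were GRCm38 and Rnor_6.0 and the tools included STAR, Bowtie, Bowtie2, HISAT2, StringTie, cutadapt, featureCounts and DESeq2. The sources used here do not say which tool made which table, nor versions or strand settings. Columns for H9C2 carry the names of annotation files, which leaves transcript coverage as a possible origin of its counts. The tRNA table, with 2 columns of per-sample values, was not used.

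Columns were matched to samples by name. Each gene was represented by its frame of highest footprint count over 4 libraries. Counts were tested with edgeR 4.0.16 (R 4.3.3; glmQLFit, glmQLFTest, TMM, filterByExpr), with only the groups compared in each fit, and with 1 model over 8 heart libraries for translational efficiency and over 10 libraries for the heart-to-H9C2 difference. SE was the absolute log2 fold change over the square root of F. Scripts were tested on simulated data. Alternatives were relative-log-expression factors, library totals, at least 1 count, a minimum of 50 counts in all libraries of 1 group, DESeq2 1.42.0, a replicate block, other frame choices and each library left out.

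Every member is reported, with values per library for those past the threshold. Other pathway genes named are up to 3 per list with the smallest adjusted p in heart RNA, footprints and H9C2. Members and lists were chosen with earlier results of these data known.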

Additional observations from a re-analysis of the deposited data

Results flagged for a closer look

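For 14 of the 37 members tested, the RNA change after Mettl1 loss differed between whole heart and H9C2 cells, by the contrast of both changes in 1 edgeR model, beside 19.3% of all 10437 genes tested. Values are the heart change minus the H9C2 change on the log2 scale. The lower changes in heart were those of Cpt1a (-1.06), Acot1 (-0.89), Lpl (-0.80), Slc27a1 (-0.78), Acadvl (-0.74), Acaa2 (-0.53), Slc22a5 (-0.48), Acadl (-0.42), Mlycd (-0.41), Hadh (-0.40), Hadhb (-0.31) and Hadha (-0.22). The higher changes in heart were those of Acsl3 (1.27) and Acsl1 (0.44). The members' groups in H9C2 and heart also differ in species, tissue and age. These cannot be told apart from the means of Mettl1 loss or from the size of the Mettl1 RNA change. Of the 16 alternatives run, 12 ended the call of Hadha, 11 that of Slc22a5, 8 that of Mlycd and 1 that of Acadl, and the other 10 calls held under all of them.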

How the results depend on the processing

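No member that passed in heart RNA, footprints, H9C2 or the heart-to-H9C2 difference turned its direction under any alternative run. Of those calls, 15 of 22 in heart RNA, 15 of 24 in footprints, 9 of 13 in H9C2 and 10 of 14 for the difference held under all of them. The number of members that rose was 3 with library totals and 0 without cKO replicate 1 in heart RNA (1 in the report), 2 with library totals and 1 to 2 without single libraries in footprints (1 in the report), and 3 to 6 without single libraries in H9C2 (6 in the report). In H9C2 8 rose with library totals and 7 by DESeq2. Members that fell in heart RNA (21 in the report) numbered 15 with library totals, 15 by DESeq2 and 16 to 18 without single libraries, and in footprints (23 in the report) 20 with library totals and 16 to 22 without single libraries. For translational efficiency 1 member, Hadh, passed by DESeq2 and under the replicate block, and 0 otherwise. Some members that missed the threshold in the report passed under an alternative. With the replicate block Decr1 and Lipe RNA (edgeR adjusted p = 0.0278 and 0.0218) and Acaa1a footprints (edgeR adjusted p = 0.0337) fell. Etfb RNA fell with the replicate block or at least 1 count (edgeR adjusted p = 0.0230 and 0.0419). With library totals Acot13 footprints rose (0.26, edgeR adjusted p = 0.0264). The cause of these shifts was not tested.

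Deviations of same-numbered libraries of both genotypes had correlations of 0.040 in heart RNA, -0.0023 in footprints and -0.0023, 0.157 and -0.197 in H9C2. Not every H9C2 library correlated best with its own number. With 2 libraries per genotype each heart assay gives only 1 such value, repeated with its sign turned for differing numbers. These values therefore cannot decide whether numbers pair samples. With the replicate block 1 member rose and 26 fell in heart RNA, 1 rose and 26 fell in footprints, 6 rose and 6 fell in H9C2, 2 rose and 9 fell for the difference, and 1 fell for translational efficiency, Hadh (-0.37, edgeR adjusted p = 0.0315).

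Sign changes were limited to members that had not passed. With library totals the estimate became 0.073 for Acad9 and 0.032 for Hadh in heart RNA, 0.019 for Fabp3, 0.036 for Eci2, 0.024 for Decr1 and 0.055 for Pnpla2 in footprints, 0.0042 for Acsl5, 0.013 for Cpt1b, 0.0024 for Mlycd and 0.024 for Acad9 in H9C2, and 0.055 for Acad9, 0.039 for Etfdh and 0.028 for Acot2 in the difference. Cpt1b footprints gave -0.013 with frames summed and -0.51 with the longest frame, and -0.33 for translational efficiency with the longest frame. In the difference Eci1 gave -0.010 with relative-log-expression factors and by DESeq2, and Acad9 0.0080 with at least 1 count. Further members crossed zero when single libraries were left out. In heart RNA these were Acot2 -0.023 to 0.12, Acsl5 -0.042 to 0.088 and Eci2 -0.020 to 0.075. In footprints these were Acad9 -0.022 to 0.080, Acot2 -0.00046 to 0.17, Acsl5 -0.0015 to 0.45, Decr1 -0.15 to 0.057, Fabp3 -0.18 to 0.085, Pnpla2 -0.098 to 0.068 and Slc27a4 -0.019 to 0.17. In translational efficiency these were Acaa1a -0.15 to 0.095, Acad9 -0.029 to 0.075, Acot13 -0.18 to 0.054, Acot2 -0.036 to 0.12, Acsl1 -0.074 to 0.15, Acsl3 -0.023 to 0.51, Acsl5 -0.085 to 0.50, Cd36 -0.27 to 0.027, Cpt2 -0.16 to 0.047, Decr1 -0.0054 to 0.18, Eci2 -0.12 to 0.0013, Hadhb -0.44 to 0.092 and Slc22a5 -0.25 to 0.014. In H9C2 these were Acacb -0.84 to 0.78, Acad9 -0.050 to 0.024, Acads -0.098 to 0.0073, Acot1 -0.048 to 0.070, Acot13 -0.045 to 0.15, Acot2 -0.022 to 0.15, Cpt1b -0.22 to 0.11, Etfa -0.12 to 0.0081 and Mlycd -0.090 to 0.053. In the heart minus H9C2 difference these were Acacb -1.14 to 0.47, Acad9 -0.055 to 0.029, Acot2 -0.11 to 0.061, Acsl4 -0.011 to 0.36, Acsl5 -0.017 to 0.11, Cpt1b -0.32 to 0.021, Echs1 -0.042 to 0.12, Eci1 -0.060 to 0.058 and Etfdh -0.056 to 0.019. The sparsest members were Slc27a6 in heart RNA (10 counts or fewer per library) and Cpt1b in heart RNA (21 to 24 counts per library), and the size of difference detectable at such depth was not tested.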
